A study of Mus musculus with 4 samples.

Results

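Wild-type pool 2 was compared with wild-type pool 1, the pools of sorted collecting duct cells that served as the controls of a knockout study in newborn mice. The members were the genes that could be measured in at least 1 of these pools: 13520 of the 33390 genes on the array, 9473 of them with a current RefSeq symbol. A gene was a member when a probe of it was well above background, by the scanner software's own flag, in both dye channels of at least 1 pool. The rule used detection and not the difference between the pools: 11067 genes were well above background in all 4 self-array channels, 483 in both channels of pool 1 and neither of pool 2, and 447 the other way round. A gene that passed through 1 pool alone leans towards a higher value in that pool. The comparison drew on 3 of the 4 arrays of the series.

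The series asked which genes change when the (pro)renin receptor, encoded by Atp6ap2, is targeted in the ureteric bud lineage. Cells positive for EGFP were sorted by flow cytometry from mice at postnatal day 1, from HoxB7CreEGFP+; PRR flox/flox animals and from CreEGFP+ PRR+/+ animals. Both wild-type pools were of the PRR+/+ kind and carried the same Cre and EGFP as the knockout mice, with no treatment given in the labels. In both, the Hoxb7 promoter drove Cre and EGFP, so the sort selected the ureteric bud, the epithelial tube that branches into the collecting ducts, and the ducts made from it. The number and sex of the animals in a pool are not given in the sources used here. Each labelling reaction took 0.5 µg of total RNA. On 1 array pool 1 was hybridised against itself, in Cy5 and in Cy3, and on another pool 2 was hybridised against itself. Cy3 of the array that held knockout RNA in Cy5 was a further channel of pool 2, called the third channel below. The Cy3 channel of the other knockout array, labelled pool 1, had only 28 of 41174 probes well above background and was not used. Pool 1 was therefore read on 1 array and pool 2 on 2 arrays.

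The labels of these arrays conflict. The titles of both self-hybridised arrays call them knockout, and their descriptions exchange the pools relative to the source names. The source names of both channels were followed here. If the descriptions held instead, every sign below would turn. The third channel bears on this, because each of its labels gives pool 2. Across 13520 genes its profile had a correlation of r = 0.997 with Cy3 of the array sourced as pool 2, and of r = 0.948 with Cy3 of the array sourced as pool 1. The genes are not independent, and this r is a description.

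Each pool is 1 sample, so no test of the difference between pools exists, and no p-value is given. Differences are on the log2 scale, pool 2 minus pool 1, and were taken within each dye. A gene was called higher or lower when the difference was at least 2-fold, 1 log2 unit, in the same direction in Cy5 and in Cy3. This rule sets the pools apart within each dye for every called gene. The third channel was not used to call genes, and it repeats the RNA of pool 2. The share of all genes whose channels do not overlap between the pools is not given here. An SD over the 2 dyes measures labelling and hybridisation of the same RNA, not differences between animals. Between 14936 and 20028 of 41174 probes were well above background in the 5 wild-type channels, and no spot was saturated. The spike-in control spots had a median background-subtracted signal of 3783 in Cy5 and 893 in Cy3 of the pool 1 array, 5.60 and 50.4 on the pool 2 array and 57.6 in the third channel. The part of that gap in the results was not tested. A dark patch of 554 spots on the pool 1 array, where 34.4% of the bright spots had lost over 4-fold of their signal against 0.293% elsewhere, was left out.

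In the kidney, filtered fluid first enters the proximal tubule, whose cells take back glucose, phosphate, amino acids and small proteins through a brush border, make glucose, and live largely on fatty acid oxidation. The loop of Henle and distal tubule follow, and these segments all arise from the nephron progenitors. The collecting duct has another origin, the ureteric bud, and is built of principal cells, which handle water and sodium, and intercalated cells, which handle acid and base. The urothelium lining the pelvis and ureter belongs to the ureteric bud lineage too. HNF4 is a transcription factor known for its role in proximal tubule genes.

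Genes of the proximal tubule were among those higher in pool 2. Of 13520 genes, 246 were at least 2-fold higher in pool 2 in both dyes (1.82%) and 90 were at least 2-fold lower (0.666%). Among the higher genes were the brush border phosphate carrier Slc34a1, the glucose-making enzymes Fbp1 and G6pc, and the scaffold Pdzk1, all 6.80-fold to 10.6-fold higher. The lists used here held 42 of the 246 higher genes, 19 of them in the proximal tubule list, so most higher genes were in no list. Among the lower genes were the globins Hba-a1 and Hbb-bt and the collagen gene Col1a2. The median difference of all genes was -0.02 in each dye.

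Short promoter stretches of 2 higher genes, picked after the values were seen, are shown first, since they hold letters that the liver and kidney factor HNF4 is known to bind. The capitals mark a match to CAAAGTCCA on either strand. The stretches come from the RefSeq promoters of GRCm38.p6, run 5′ to 3′ on the strand of the gene and end before its start.
Slc3a1, chr17:85028283-85028342, plus strand: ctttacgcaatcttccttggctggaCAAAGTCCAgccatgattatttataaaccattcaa
Aadat, chr8:60506027-60506086, plus strand: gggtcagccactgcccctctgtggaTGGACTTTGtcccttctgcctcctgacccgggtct

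Slc3a1 is a subunit of the cystine carrier, and Aadat is an aminotransferase of lysine and tryptophan breakdown. Slc3a1 was higher by 1.62 in Cy5 and 1.92 in Cy3, and Aadat by 1.79 and 1.67. Of the 246 higher genes, 166 had a promoter of 300 bases in the RefSeq table. The HNF4 letters were present in 5 of these (3.01%), in 34 of 7644 measured genes with a promoter (0.445%) and in 150 of 27025 genes of the table (0.555%). A match describes the letters in this window and is no evidence of binding. Hnf4a, a gene of this factor, was not well above background in pool 1, so no exact difference is given. Maf, another transcription factor of this segment, looked at after its values were seen, was higher by 1.19 in Cy5 and 1.16 in Cy3 by its brightest probe, and a further probe was at 0.21 and 0.28.

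The difference between the pools was far wider than that between repeats. Between the Cy3 channels of pool 2 on 2 arrays, 2 of 13519 genes were at least 2-fold apart (0.0148%), and the SD of the difference was 0.099. The same SD between the pools was 0.410 in Cy5 and 0.411 in Cy3. Within the pool 1 array, Cy5 and Cy3 were at least 2-fold apart for 1 gene (0.0074%), and within the pool 2 array for 2 genes (0.0148%). The differences ran from -3.17 to 3.42 in Cy5 and from -3.47 to 3.45 in Cy3. At least 4-fold higher were 64 genes, 54 of them with a symbol, and at least 4-fold lower were 10, 1 of them with a symbol. At 8-fold the counts were 9 and 1, of which 6 and 0 had a symbol, and genes without a symbol are counted here and not named. The called gene nearest to the threshold had a smaller difference of 1.006 and the nearest gene outside it 0.999. In 4 bins of 3380 genes in order of increasing level, 0, 10, 98 and 138 genes were higher and 0, 17, 34 and 39 lower. The background correction added an offset to every signal, which narrows differences between dim genes. Levels in the lowest bin ran only from 6.42 to 6.86, which leaves little room for a 2-fold difference. These counts therefore cannot show whether dim genes differed less between the pools. With a smaller offset of 10, 353 genes were higher and 187 lower over all levels.

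**Figure D1:**
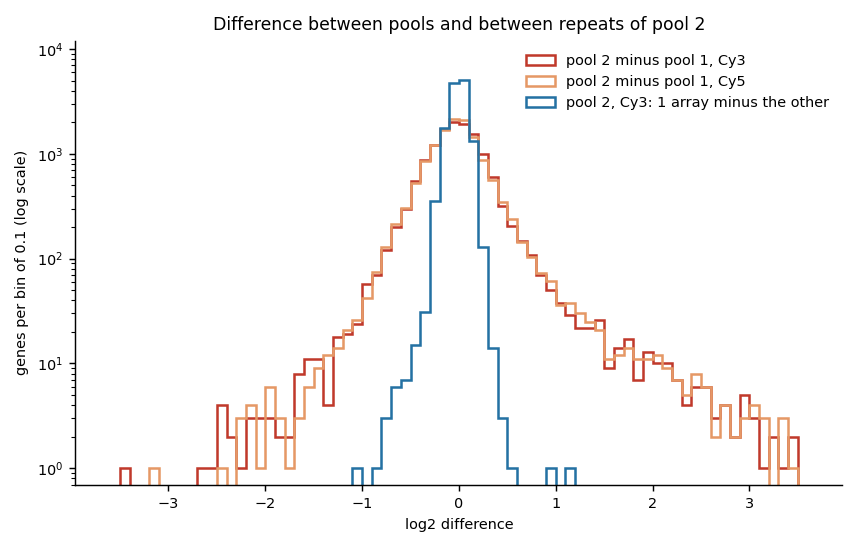
Number of genes (log scale) by log2 difference in bins of 0.1, for pool 2 minus pool 1 in Cy5 and in Cy3, and for the repeat of pool 2 in Cy3 on 2 arrays. The pool differences run from -3.17 to 3.42 in Cy5 and from -3.47 to 3.45 in Cy3, with more genes far above zero than far below, and the repeat lies within -1.09 and 1.19.

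In Cy5, fewer genes were 2-fold apart between pool 1 and the channels labelled knockout than between pool 1 and pool 2. With the 7 readable channels normalised together and Cy5 compared with Cy5, 469 genes were at least 2-fold apart between pool 2 and pool 1 (3.47%). Pool 1 and the knockout channel of the first array differed that far in 12 genes (0.0888%), and pool 1 and the knockout channel of the second array in 68 (0.503%). Pool 2 differed from these knockout channels in 472 genes (3.49%) and 517 genes (3.82%). The knockout channels differed from each other in 15 genes (0.111%). These comparisons share channels and are not independent of one another. Across genes, Cy5 of pool 1 had a correlation of r = 0.994 and r = 0.987 with the knockout channels, and Cy5 of pool 2 of r = 0.948 and r = 0.944. The spike-in signal grouped the Cy5 channels the same way. Its median was 3783 in pool 1, 4606 and 1786 in the knockout channels, and 5.60 in pool 2. Its part in these counts and correlations was not tested. The title of the pool 1 array calls it knockout, as does that of the pool 2 array, and what pool 1 is here depends on which of its labels holds. Atp6ap2, the targeted gene, differed between the wild-type pools by 0.12 in Cy5 and -0.02 in Cy3.

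Of the 17 cell type lists, that of the proximal tubule had the largest median difference. Of 36 listed genes 33 were on the array and 28 were measured. Of these 28, 19 were at least 2-fold higher in pool 2 and 0 lower, against 1.82% and 0.666% of all genes. All 28 were higher in both dyes, which 38.9% of all genes were. The median difference was 1.87 in Cy5, 1.94 in Cy3 and 1.90 with the third channel in place of Cy3, against -0.02 over all genes. All 28 were well above background in both channels of pool 2, and 17 in both channels of pool 1. The rest passed the detection rule through pool 2 alone, which favours a higher value there, so the count of 28 leans that way. Cells and message cannot be separated in bulk RNA, so more cells of a type and more RNA per cell cannot be told apart. Lrp2 and Cubn, the endocytic receptors of this segment, were not matched to a probe, and Slc22a6, Slc7a13, Ttr, Cyp2e1 and Cyp4b1 were not well above background in both channels of either pool.

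The enzymes of glucose production were among the most different. Fbp1, fructose-1,6-bisphosphatase, had normalised log2 intensities of 9.65 in Cy5 and 9.77 in Cy3 of pool 1, and of 13.07, 13.16 and 13.44 in the 3 channels of pool 2. The difference was 3.41 ± 0.02 (SD over 2 dyes), or 10.6-fold. G6pc, glucose-6-phosphatase, was at 7.13 and 7.26 in pool 1 and at 9.89, 10.03 and 10.05 in pool 2, a difference of 2.76 ± 0.00. Pck1, which commits carbon to glucose, was higher by 2.27 in Cy5 and 2.39 in Cy3. Pcx, pyruvate carboxylase, outside the list and named after its value was seen, was higher by 2.55 on average. Each of these genes was past 2-fold in both dyes. Slc2a2, the basolateral glucose carrier, was not well above background in either channel of pool 1 and was at least 1.92-fold higher in pool 2.

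Membrane carriers of the proximal tubule and a scaffold of its brush border were higher as well. Slc34a1, the main phosphate carrier, was at 8.34 and 7.99 in pool 1 and at 11.45, 11.25 and 11.16 in pool 2, a 9.13-fold difference. Pdzk1, which tethers carriers at the membrane, was at 8.59 and 8.62 in pool 1 and at 11.50, 11.49 and 11.59 in pool 2, a 7.39-fold difference. In both genes the third channel, too, was over 2 log2 units above those of pool 1. Slc22a8, an organic anion carrier, was higher by 1.20 in Cy5 and 1.34 in Cy3, and Aqp1, the water channel of this segment, by 1.76 and 1.68. For Slc22a8 a further probe was at 0.39 and 0.26, and the brightest was well above background in 1 of 2 channels of pool 1. The brush border peptidases Ggt1 and Dpep1 were higher by 2.10 and 2.22 and by 2.08 and 1.98. Other carriers stayed under 2-fold in at least 1 dye. The glucose carrier Slc5a2 was at 0.80 and 0.74, the sodium and lactate carrier Slc5a12 at 0.86 and 0.51, and the phosphate carrier Slc34a3 at 0.81 and 0.50. Of the 28 list genes 17 were well above background in both channels of pool 1. The list median rose to 3.11 with the scanner's processed signal. Whether low signal in pool 1 held these carrier values down was not tested.

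Further genes among the 12 with a symbol that were highest in pool 2 by this measure included enzymes of detoxification and of amino acid and lipid handling. Gsta1, a glutathione S-transferase, was at 7.61 and 7.57 in pool 1 and at 10.95, 11.03 and 11.08 in pool 2, a 10.5-fold difference. Hsd3b4, of the 3-beta-hydroxysteroid dehydrogenase family, was at 9.47 and 9.56 in pool 1 and at 12.79, 12.98 and 12.91 in pool 2, a 10.4-fold difference. Cyp2d26, a cytochrome P450, was 9.06-fold higher. Probes of the Gsta, Hsd3b, Cyp2d and Cyp4a genes can also bind near-identical relatives, and the share of each relative in these values is uncertain. Ass1, argininosuccinate synthase, which makes arginine's precursor in the proximal tubule, was at 7.61 and 7.56 in pool 1 and at 10.61, 10.58 and 10.65 in pool 2. Its difference was 8.04-fold. Acsm2, which activates medium-chain fatty acids, was 7.89-fold higher, and Mogat2, which makes diacylglycerol, 7.79-fold. Gpx3, the plasma glutathione peroxidase that the proximal tubule secretes, was 7.22-fold higher, and Spp2, a secreted phosphoprotein, 8.38-fold. In each of these genes the third channel, not used to choose them, also lay above both channels of pool 1.

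**Figure D2:**
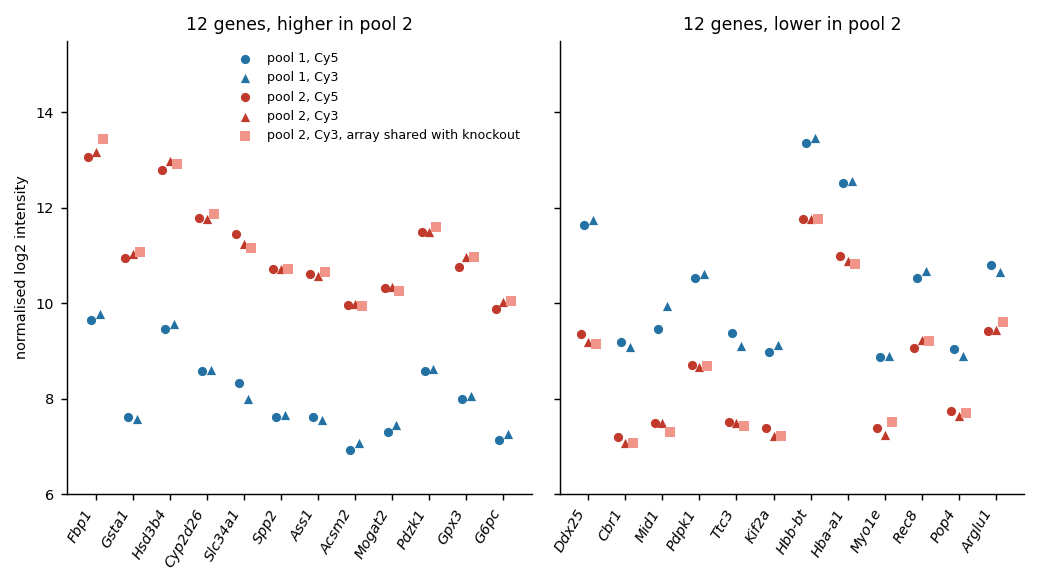
Normalised log2 intensity in each of the 5 wild-type channels for the 12 genes in each direction with the largest difference among genes with a symbol that were well above background in all 4 self-array channels. The channels of pool 2 lie above those of pool 1 in every gene of the left panel (Fbp1 9.65 to 13.44) and below them in every gene of the right panel (Ddx25 11.74 to 9.14).

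The next segments differed less. In the loop and distal tubule list 22 genes were measured, with a median of 0.34 in Cy5 and 0.37 in Cy3. At least 2-fold higher in pool 2 were 4 of them and 0 were lower, against 1.82% and 0.666% of all genes. Higher in both dyes were 19, against 38.9% of all genes. All 22 were well above background in both channels of pool 2 and 13 in both of pool 1. The rest passed the detection rule through pool 2 alone, which favours a higher value there. Umod, the uromodulin of the thick ascending limb, was at 9.14 and 9.0 in pool 1 and at 11.21, 11.15 and 11.20 in pool 2, a 4.31-fold difference. Slc12a1, the carrier that loop diuretics block, was 4.02-fold higher, Ppp1r1a 3.94-fold (with a further probe at 0.59 and 0.72) and the claudin Cldn10 3.27-fold. In these 4 genes, named for their difference, the third channel also lay above those of pool 1. The distal convoluted tubule carrier Slc12a3 was at 0.36 in Cy5 and 0.41 in Cy3. Kcnj1, a potassium channel of the thick ascending limb and of principal cells, was at 8.18 and 8.40 in pool 1 and at 9.97, 10.15 and 10.24 in pool 2, a 3.42-fold difference.

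The urothelium list differed within itself. Of 13 measured genes 6 were at least 2-fold higher in pool 2 and 0 lower, 8 were higher in both dyes and 5 lower in both. Of all genes, 1.82% and 0.666% passed 2-fold, and 38.9% and 45.1% were higher and lower in both dyes. The higher genes were the uroplakins Upk1a, Upk1b and Upk2, which form the plaques of the surface cells, the surface keratin Krt20, the surface antigen Psca and the cornified envelope gene Sprr1a. Psca was at 7.30 and 7.21 in pool 1 and at 8.63, 8.63 and 8.59 in pool 2, a 2.59-fold difference. Upk1a was at 7.37 and 7.31 in pool 1 and at 8.53, 8.38 and 7.96 in pool 2. The third channel of Upk1a was the lowest of pool 2 and lay 0.64 above Cy3 of pool 1, under 2-fold, and that of Upk2 lay 0.95 above. Krt5, the keratin of basal cells, was at -0.91 in Cy5 and -0.85 in Cy3, and Krt14 at -0.29 and -0.16. The other genes lower in both dyes were Sprr2f at -0.72 and -0.70, Trp63 at -0.18 and -0.01, and Gsdmc. Gsdmc, well above background in neither channel of pool 2, has no exact difference.

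Most genes that mark the sorted cells were under 2-fold apart. Of 20 measured principal cell genes 1 was at least 2-fold higher in pool 2, the potassium channel Kcnj1 given above, and 0 lower, with 6 higher and 13 lower in both dyes. Of all genes, 38.9% were higher and 45.1% lower in both dyes, and 1.82% were at least 2-fold higher. Both pools had the defining collecting duct genes well above background: all 20 principal cell genes in both channels of each pool, and 18 of 18 intercalated cell genes in pool 1 and 17 in pool 2. The summed level of the principal cell genes was 43561 in Cy5 and 42114 in Cy3 of pool 1 and 37998, 38626 and 38881 in pool 2. That of the proximal tubule genes was 6427 and 6699 in pool 1 and 37179, 37719 and 42091 in pool 2. These sums are in normalised intensity units and compare pools within a list, not lists. The principal cell sum in pool 2 was 0.872 of that in pool 1 in Cy5 and 0.917 in Cy3, and the proximal tubule sum 5.78 and 5.63 times as large. Aqp2, the water channel of principal cells, differed by -0.42 in Cy5 and -0.09 in Cy3, and the sodium channel subunit Scnn1b by -0.34 and -0.31. Hoxb7, whose promoter drove the reporter, was at 10.82 and 10.77 in pool 1 and at 10.30, 10.29 and 10.36 in pool 2. Its 3 pool 2 channels lay below those of pool 1, by 0.50 ± 0.03 on average, under 2-fold. Gata3, a regulator of the ureteric bud, differed by -0.61 and -0.65, the cytokeratin Krt19 by -0.70 and -0.60 and Elf5 by -0.65 and -0.74.

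In the intercalated cell list 13 of 18 genes were lower in both dyes, as were 45.1% of all genes, and 0 passed 2-fold. The median was -0.28 in Cy5 and -0.35 in Cy3. The exchanger Slc4a9 differed by -0.95 and -0.72 and the ammonia channel Rhcg by -0.50 and -0.62. The proton pump subunits Atp6v0a4 and Atp6v1b1 lay on the other side, at 1.11 and 0.97 and at 0.80 and 0.73. Of the 17 measured genes of the ureteric tip, where branching takes place, 0 passed 2-fold, and the median was 0.03 in Cy5 and -0.07 in Cy3. Ret, the receptor that drives branching, was at -0.02 in Cy5 and at 0 within rounding in Cy3. Wnt9b differed by -0.83 and -0.59, and Etv4, a factor downstream of Ret, by 0.40 and 0.68. In the ureteric trunk list Cldn4 was 2.26-fold higher and the other 16 of 17 measured genes were under 2-fold in at least 1 dye. The medians of the tip and trunk lists lay on either side of 0 depending on the dye and the normalisation.

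**Figure D3:**
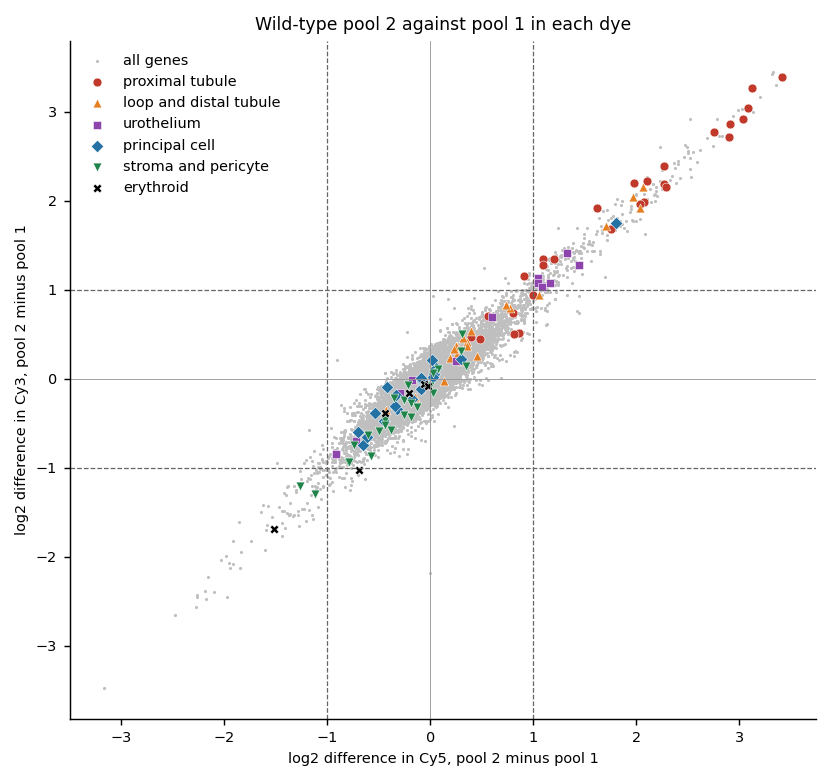
Log2 difference of pool 2 minus pool 1 in Cy5 (horizontal) and in Cy3 (vertical) for 13520 genes, with 6 gene lists marked and dashed lines at 2-fold. The proximal tubule genes spread to the upper right, with 19 of 28 past 2-fold in both dyes, and the stroma and erythroid genes lie mainly below 0.

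Most stroma genes had lower values in pool 2. In the stroma list 19 of 25 measured genes were lower in both dyes and 2 were at least 2-fold lower, Mgp and Col1a2, with 0 higher. Of all genes, 45.1% were lower in both dyes and 0.666% at least 2-fold lower. The median of the list was -0.25 in Cy5 and -0.41 in Cy3. Col1a2, a chain of type I collagen, was at 10.22 and 10.32 in pool 1 and at 9.10, 9.03 and 9.03 in pool 2, a 2.30-fold difference. Mgp, the matrix Gla protein, was at 8.96 and 8.93 in pool 1 and at 7.70, 7.74 and 7.90 in pool 2, a 2.35-fold difference. In both genes the third channel, too, lay below those of pool 1. Col3a1 differed by -0.80 and -0.93 and Meis2 by -0.79 and -0.94. Pdgfra and Foxd1, stromal markers, were not well above background in both channels of either pool.

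The globin genes were lower in pool 2. Hba-a1, alpha globin, was at 12.52 and 12.57 in pool 1 and at 11.00, 10.88 and 10.83 in pool 2, a 3.05-fold difference. Hbb-bt, a beta globin, was at 13.36 and 13.47 in pool 1 and at 11.76 in all 3 channels of pool 2, a 3.13-fold difference. All 4 of its probes lay between -1.70 and -1.51, and the probes of the beta globins can bind each other's message. Alas2, the haem synthesis enzyme of red cells, differed by -0.69 and -1.03. All 6 measured genes of the list were lower in both dyes, 1 of them past 2-fold, and the list's summed level in pool 2 was 0.404 of that in pool 1 in Cy5 and 0.369 in Cy3. S100a9, a neutrophil gene, was 2.17-fold lower, and the other 11 of 12 measured leukocyte genes were under 2-fold in at least 1 dye. In the endothelium list 10 of 12 measured genes were lower in both dyes and 0 passed 2-fold, with a median of -0.17 in each dye. Of all genes, 45.1% were lower in both dyes and 0.666% at least 2-fold lower.

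Other cell type lists were measured in part. In the podocyte list 8 of 13 genes on the array were measured, in the nephron progenitor list 12 of 19 and in the liver list 7 of 13. Nphs1 of podocytes, Six2 and Eya1 of nephron progenitors, and Alb, Apoa1 and Apoa2 of liver did not pass the detection rule in either pool, while Cited1 of nephron progenitors did. Afp, alpha-fetoprotein, was at 7.81 and 7.80 in pool 1 and at 9.91, 9.83 and 9.87 in pool 2, a 4.18-fold difference, and was the 1 gene of the liver list past 2-fold. In the podocyte and nephron progenitor lists 0 measured genes passed 2-fold. The part of the stroma, red cell and proximal tubule genes in any other difference between the pools was not tested.

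**Figure D4:**
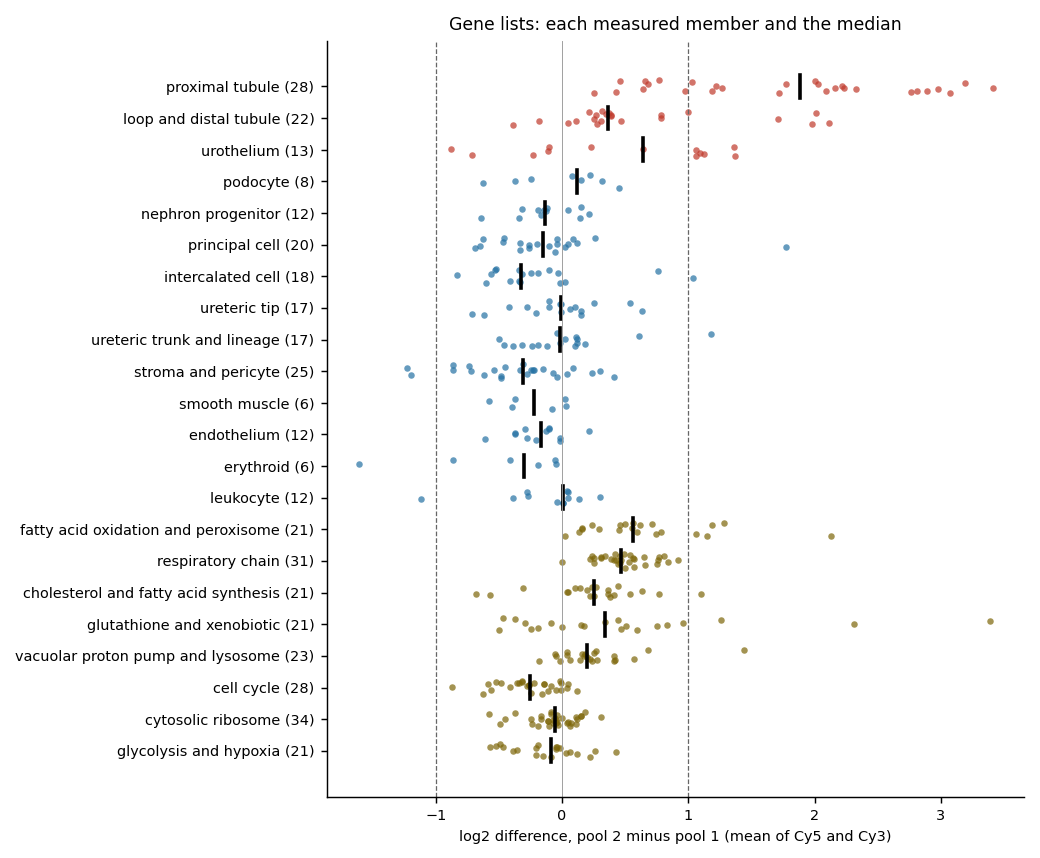
Log2 difference of each measured gene (points, mean of 2 dyes) and the median (black bar) for 22 gene lists, with the number measured in brackets and dashed lines at 2-fold. Red marks the lists of nephron tubules and urothelium, blue the other cell types and brown the cell processes; the proximal tubule genes lie between 0.25 and 3.41, all above 0.

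Among the cell processes, genes of mitochondria and peroxisomes had higher values in pool 2. Of 21 measured genes of fatty acid oxidation and peroxisomes, 21 were higher in both dyes and 4 at least 2-fold higher, with 0 lower and a median of 0.53 in Cy5 and 0.58 in Cy3. Of all genes, 38.9% were higher in both dyes, 1.82% at least 2-fold higher and 0.666% at least 2-fold lower. All 21 were well above background in both channels of pool 2, and 18 in both of pool 1. Fabp3, a fatty acid binding protein, was at 9.64 and 9.71 in pool 1 and at 11.82, 11.80 and 11.94 in pool 2, a 4.38-fold difference. Acadvl, the very long chain acyl-CoA dehydrogenase, was 2.42-fold higher, the peroxisomal enzyme Ehhadh 2.29-fold and the carnitine palmitoyltransferase Cpt2 2.23-fold. In these 4 genes the third channel, too, exceeded those of pool 1. The genes of the respiratory chain list differed by small amounts, nearly all in 1 direction. Of the 31 measured genes of this list 30 were higher in both dyes and 0 passed 2-fold, with a median of 0.47 in Cy5 and 0.48 in Cy3. Uqcrq, a subunit of complex III, had the largest, 0.96 in Cy5 and 0.87 in Cy3, and Cox6a1 of complex IV was at 0.78 and 0.75. The proximal tubule, where these genes are known to be abundant, was the list with the largest shift, and its part in them was not tested.

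Glutathione and xenobiotic genes were mixed. Of 21 measured genes 3 were at least 2-fold higher, Gsta1, Gsta2 and Gstt2, and 0 lower, with 13 higher and 7 lower in both dyes. Of all genes, 1.82% and 0.666% passed 2-fold, and 38.9% and 45.1% were higher and lower in both dyes. Gsta2 was 4.97-fold higher. In the cholesterol and fatty acid synthesis list 17 of 21 measured genes were higher in both dyes. All 21 were well above background in both channels of pool 2, and 16 in both of pool 1. Fasn, the fatty acid synthase, differed by -0.57 in each dye and Scd2 by -0.71 and -0.65. The list of the vacuolar proton pump and lysosome, to which the product of Atp6ap2 belongs, had 23 measured genes. Of these, Lamp2 was 2.71-fold higher by its brightest probe, with a further probe at 0.25 in Cy5 and 0.35 in Cy3. In this list 0 genes were lower past 2-fold, and the median was 0.18 in Cy5 and 0.21 in Cy3. Outside it, the lysosomal enzymes Lgmn and Lipa, named after their values were seen, were higher by 1.27 and 1.39 and by 1.32 and 1.24. In the cell cycle list 22 of 28 measured genes were lower in both dyes, against 45.1% of all genes. Of the list 0 passed 2-fold, and the median was -0.22 in each dye. Mcm6, part of the replicative helicase, differed by -0.89 and -0.84 and Pcna, the polymerase clamp, by -0.70 and -0.56. In the renin-angiotensin list 0 of 8 measured genes passed 2-fold. Enpep was at 0.88 and 0.96, and Ren1, the gene of renin, was not well above background in pool 1. Of the 4 measured sex-linked genes, Xist differed by 0.25 and 0.26, Ddx3y by -0.31 and -0.36, and Eif2s3y by -0.49 and -0.29, all under 2-fold. Xist was well above background in 1 of 2 channels of pool 1, and Kdm5d, in neither channel of pool 2, has no exact difference.

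Most of the largest lower differences were in genes without a symbol. Among genes with a symbol and well above background in all 4 self-array channels, those with the largest lower differences were, apart from the globins, in no cell type list. Ddx25, an RNA helicase best known from testis, was at 11.63 and 11.74 in pool 1 and at 9.36, 9.18 and 9.14 in pool 2, a 5.33-fold difference. Mid1, a ubiquitin ligase of microtubules, was at 9.47 and 9.94 in pool 1 and at 7.50, 7.49 and 7.30 in pool 2, a 4.63-fold difference. Cbr1, a carbonyl reductase, was at 9.18 and 9.08 in pool 1 and at 7.19, 7.08 and 7.08 in pool 2, a 3.97-fold difference. The third channel, too, stayed below those of pool 1 in these genes. Pdpk1, a kinase upstream of Akt, was 3.72-fold lower, the kinesin Kif2a 3.39-fold, the ubiquitin ligase Ttc3 3.33-fold and the myosin Myo1e 2.99-fold. Rec8, a cohesin subunit of meiosis, was 2.74-fold lower by its brightest probe, the splicing cofactor Arglu1 2.47-fold and the RNase P subunit Pop4 2.42-fold. Among genes not well above background in pool 2, 1700001F09Rik was at least 2.42-fold lower, and among those not well above background in pool 1, Cyp2j13 was at least 2.53-fold higher.

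Other probes of the same genes bore differently on the directions. Only genes with a symbol were looked at for this. Of the 219 such higher genes, 50 had further member probes, 55 in all, and 54 of these were higher in both dyes, 16 of them by 2-fold. The exception was Vapb, whose further probe differed by -0.11 and -0.16 against 2.23 and 2.60 for its brightest. Of the 27 lower genes with a symbol, 13 had further probes, 18 in all, of which 12 were lower in both dyes and 3 by 2-fold, all 3 being Hbb-bt. For Pdpk1 the further probes differed by 0.27 and 0.12 and by 0.15 and -0.10, for Kif2a by -0.07 and -0.02, for Arglu1 by 0.05 and -0.08, and for Myo1e by 0.01 and -0.05 and by -0.16 and -0.10. The median further probe had 55.8% of the brightest probe's difference in the higher genes and 22.6% in the lower genes. Probes of a gene can lie in different exons or 3′ ends. Although they have further probes, the values past 2-fold of Pdpk1, Kif2a, Arglu1, Myo1e, Rec8, Pop4, Lamp2, Maf, Ppp1r1a, Slc22a8, Slc47a1, Upk1a and Vapb are those of 1 probe each. Many other named genes had only 1 member probe, so no further probe could be set beside it. Among these were Ddx25, Mid1, Cbr1, Ttc3, Hba-a1, Mgp and Col1a2 of the lower genes, and Fbp1 and Gsta1 of the higher.

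**Figure D5:**
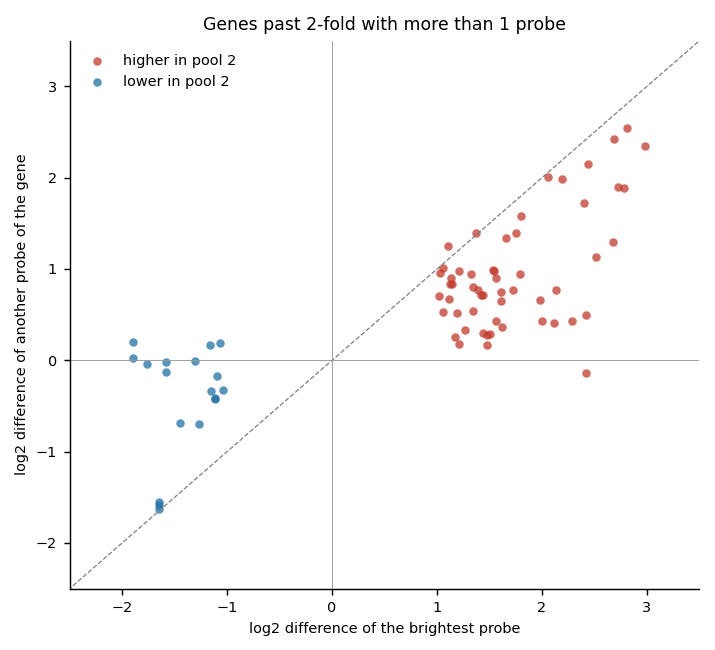
Log2 difference (mean of 2 dyes) of the brightest probe of a gene (horizontal) and of another probe of the same gene (vertical), for genes with a symbol past 2-fold in both dyes, with the line of equality dashed. The further probes of higher genes lie above 0 except for Vapb, and of those of lower genes many lie near 0, with Hbb-bt on the line.

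The higher and lower genes differed in how they are annotated. Of the higher genes 219 of 246 (89.0%) had a RefSeq symbol, and of the lower genes 27 of 90 (30.0%), against 70.1% of all measured genes. Probes designed on RIKEN full-length cDNA clones made up 13.1% of the measured genes, 1.63% of the higher genes and 40.0% of the lower genes, with a median difference of -0.12 in Cy5 and -0.14 in Cy3. Probes designed on curated RefSeq mRNAs made up 71.8% of the measured genes, 90.7% of the higher and 36.7% of the lower. The counts depended on how low signals were treated: with the scanner's processed signal in place of the normexp correction, 1020 genes were higher and 931 lower, so that 52.3% of the called genes were higher against 73.2%. With plain subtraction of the local background the share was 55.8%. With the processed signal the median over both dyes also moved, to 3.11 in the proximal tubule list, 1.48 in the loop and distal tubule list, -0.86 in the stroma list and -0.63 in the erythroid list.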

How the data were processed

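RNA of sorted cells was hybridised to Agilent two-colour Whole Mouse Genome arrays, 1 array per sample. Agilent Feature Extraction 10.7.3.1 read the scans, per the file headers. Used here were the deposited median intensity of a spot and of its surround in either dye, in scanner units without normalisation, and the software's flags for detection, saturation and outliers. The software's processed signal, which the authors deposited as well, served as an alternative. The header's genome build is older than the RefSeq table, so no probe coordinates are given.

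Signals were corrected with limma 3.58.1 in R 4.3.3 (normexp, offset 50) and quantile normalised over the 5 wild-type channels. Controls, spots flagged as outliers and the dark patch were left out, and spots of a probe were averaged. Accessions of 22944 of 41174 probes matched a RefSeq symbol of GRCm38.p6 (16355 symbols), and the brightest of a gene's probes stood for it. Where a gene was not detected in a pool, its fold is a bound, taken against its own level there or the dimmest detected probe of that channel, whichever was brighter. The steps were tested on simulated data.

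Named genes, all with a RefSeq symbol, were the 12 with the largest smaller-of-2-dyes difference in each direction among genes detected in all 4 self-array channels, the 5 with the largest bound, up to 5 of each list, the sex-linked genes and Atp6ap2. Others of a list are named with their values. Pcx, Aadat, Vapb, Maf, Cox7a1, Atp5g1, Lgmn and Lipa were chosen after their values were seen. The members and lists were chosen with earlier results of these data known. A few genes that the rule names are not reported here.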

Additional observations from a re-analysis of the deposited data

How the results depend on the processing

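With 1 pool on each side, the limit is the absence of a second array of pool 1, so the pool and its array cannot be told apart. Of the 17 alternatives for the counts of 246 higher and 90 lower genes, most left both within 1.5 times. The exceptions were plain subtraction with a floor (519 higher, 411 lower), the processed signal (1020 and 931), an offset of 10 for the lower count (187), cyclic loess for the lower count (58), a 1.5-fold threshold (567 and 443) and a 3-fold threshold (113 and 22). Of the main calls, 246 higher and 90 lower genes were still called under plain subtraction, and 245 and 90 with the processed signal. Requiring all 3 channels of pool 2 gave 235 and 86. The medians of the proximal tubule list ran from 1.49 to 3.11 over 14 alternatives, and those of 13 other lists also kept their sign. The ureteric tip median changed sign with cyclic loess (0.01), all probes (0.023) and Cy5 alone (0.029), and the ureteric trunk median with cyclic loess (0.034), the processed signal (0.007), flagged spots kept (0.018) and Cy3 alone (0.044). Of 712 values of 51 genes past 2-fold that the naming rule or the later choice of Maf took, 1 changed sign, Pdpk1 with the median of its probes (0.026). The cause of these shifts was not tested. No paired analysis was possible because each pool has 1 sample and no result comes from a test.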

Other observations

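Gene families defined by their symbols, looked at after the values were seen, gave further values. Of 220 measured solute carriers 24 were at least 2-fold higher in pool 2 and 0 lower, and of 28 cytochromes P450, 9 and 0. Over all genes these shares were 1.82% and 0.666%. Some of these genes, such as Slc7a9 and Cyp4a14, were well above background in 1 of 2 channels of pool 1, and Cyp2j13 in neither. Among the carriers were Slc7a7 and Slc7a9 of cationic amino acids and cystine, Slc22a2 of organic cations, and Slc47a1, which passes cations to the urine (its further probe was at 0.87 and 0.67). The 39 measured complex I genes had a median of 0.53 in Cy5 and 0.44 in Cy3. Of these, 36 were higher in both dyes, against 38.9% of all genes, and 0 were past 2-fold.

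The hnRNP and SR families of RNA-binding proteins lay on the other side. Of 17 measured hnRNP genes, which package and splice new transcripts, 16 were lower in both dyes, against 45.1% of all genes. At least 2-fold lower was 1, Hnrnph1, against 0.666% of all genes, and the median was -0.58 in Cy5 and -0.49 in Cy3. All 9 measured SR splicing factor genes were lower in both dyes, with medians of -0.44 and -0.39 and 0 past 2-fold. A separate family, the zinc finger genes (Zfp), had medians of -0.05 in Cy5 and -0.09 in Cy3, against -0.02 over all genes. Of 184 measured, 0 passed 2-fold, 39 were higher in both dyes and 98 lower in both, against 45.1% of all genes lower.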
